A study of Mus musculus with 16 samples.

Results

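Chemokine ligands, the small secreted or membrane-tethered proteins that draw leukocytes along a gradient, were examined in the cortex of LPS- and PBS-treated mice. Members were all genes of the deposited table whose name is *Ccl*, *Cxcl* or *Cx3cl* followed by a number and at most 1 letter. The rule gave 45 gene IDs with 39 symbols, of 55487 gene IDs in all. RNA was sequenced after depletion of ribosomal RNA from 16 wild-type male C57Bl6 mice of 2 months. Each mouse received i.p. LPS at 2 mg/kg or PBS on consecutive days, at ZT1 or at ZT13, and the cortex was taken on the third day. ZT1 is 1 hour after lights on and ZT13 is 1 hour after lights off. The groups were ZT1 PBS (n = 3), ZT1 LPS (n = 5), ZT13 PBS (n = 3) and ZT13 LPS (n = 5). LPS, a component of the outer membrane of gram-negative bacteria, was given outside the brain, so the design follows the response of the cortex to a systemic stimulus.

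CXC and CC chemokines are named for the spacing of their first cysteines, and they act through G protein–coupled receptors on the target cell. CXC ligands with an ELR motif, such as *Cxcl1* and *Cxcl2*, attract neutrophils through CXCR2, whereas *Cxcl9* and *Cxcl10* attract activated T and NK cells through CXCR3. CC ligands such as *Ccl2*, *Ccl5* and *Ccl7* act on monocytes, macrophages and lymphocytes, and *Cx3cl1* (fractalkine) is made by neurons and read by CX3CR1 on microglia.

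Many inducible chemokine genes are known targets of NF-kappaB and of interferon-responsive factors. The promoters below are those of the 4 detected ligands that hold a match to the NF-kappaB consensus (*Cxcl1*, *Cxcl2*, *Cxcl10* and *Ccl9*), beside that of *Cxcl12*, which fell at ZT1 and holds no match. Each is the 250 bases before the RefSeq start of the gene in GRCm38.p6, written 5′ to 3′ on the strand of the gene. Capitals mark matches, on either strand, to the NF-kappaB consensus or to the core of the interferon-stimulated response element (ISRE), which is TTTC followed by TTTC, with 2 free bases between.
Cxcl1, chr5:90890995-90891244, plus strand: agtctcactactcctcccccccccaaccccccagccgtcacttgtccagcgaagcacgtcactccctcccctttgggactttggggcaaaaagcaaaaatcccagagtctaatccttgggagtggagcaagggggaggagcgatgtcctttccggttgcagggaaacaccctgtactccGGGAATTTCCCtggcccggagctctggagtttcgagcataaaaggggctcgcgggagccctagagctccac
Cxcl2, chr5:90903649-90903898, plus strand: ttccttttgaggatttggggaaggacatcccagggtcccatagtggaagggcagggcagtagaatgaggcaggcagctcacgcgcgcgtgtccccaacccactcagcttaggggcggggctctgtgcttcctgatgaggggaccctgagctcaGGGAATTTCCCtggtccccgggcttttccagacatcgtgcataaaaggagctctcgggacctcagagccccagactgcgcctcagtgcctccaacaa
Cxcl10, chr5:92348890-92349139, minus strand: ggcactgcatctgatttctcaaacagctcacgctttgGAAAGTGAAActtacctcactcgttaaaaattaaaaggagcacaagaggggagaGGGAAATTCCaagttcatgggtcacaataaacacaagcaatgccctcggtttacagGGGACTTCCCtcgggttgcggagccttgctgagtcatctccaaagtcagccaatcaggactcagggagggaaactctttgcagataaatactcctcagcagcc
Ccl9, chr11:83578637-83578886, minus strand: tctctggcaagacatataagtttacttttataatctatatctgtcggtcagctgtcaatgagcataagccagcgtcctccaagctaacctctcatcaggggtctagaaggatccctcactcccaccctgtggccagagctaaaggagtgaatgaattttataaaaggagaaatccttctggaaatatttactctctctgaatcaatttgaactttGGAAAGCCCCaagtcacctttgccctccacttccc
Cxcl12, chr6:117168285-117168534, plus strand: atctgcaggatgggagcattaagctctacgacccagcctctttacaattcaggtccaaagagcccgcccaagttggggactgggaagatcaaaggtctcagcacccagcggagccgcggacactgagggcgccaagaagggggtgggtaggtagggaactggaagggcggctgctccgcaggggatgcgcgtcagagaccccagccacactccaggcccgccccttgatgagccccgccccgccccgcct
In *Cxcl1* and *Cxcl2* the 11 capitals hold 2 overlapping matches to the NF-kappaB consensus. In *Cxcl10* the first run of capitals is the ISRE core and the other runs are NF-kappaB consensus matches. In *Ccl9* the capitals are an NF-kappaB consensus match on the opposite strand, and *Cxcl12* had no match in this window. Of the 27 member symbols with a promoter in the RefSeq table, 6 held the NF-kappaB consensus (*Ccl9*, *Ccl20*, *Cxcl1*, *Cxcl2*, *Cxcl3* and *Cxcl10*), and 3 held the ISRE core (*Ccl19*, *Cxcl10* and *Cxcl14*). Over all 32851 promoters of the table, 3.90% held the NF-kappaB consensus and 2.98% held the ISRE core. The symbols without an entry were *Ccl2*, *Ccl4*, *Ccl5*, *Ccl7*, *Ccl11*, *Ccl21c*, *Ccl24*, *Ccl26*, *Cxcl5*, *Cxcl11*, *Cxcl16* and *Cxcl17*. The ISRE core thus lay in *Cxcl10* and *Ccl19*, which rose at both times, and in *Cxcl14*, which fell at both. *Cxcl9*, *Ccl6*, *Ccl12*, *Ccl22*, *Ccl25* and *Ccl28*, which rose at 1 or both times, have an entry and held neither motif, and so did *Cx3cl1* and *Ccl27a*, which fell. A match describes these letters and is not a measured binding site.

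Expression was deposited as CPM, the reads on a gene per 1000000 reads on all genes of the mouse. The lowest values step by the CPM of 1 read, which gave 20251840 to 29112758 reads on genes per mouse, with a median of 22459623. A gene was taken as not detected in a group when every mouse was at or under 3 reads, or 0.103 to 0.148 CPM. These limits cover counting error only. By this limit 35 of the 45 gene IDs were detected in at least 1 group. The number was 21 in ZT1 PBS, 24 in ZT13 PBS, 33 in ZT1 LPS and 34 in ZT13 LPS cortex. A single mouse above the limit sufficed, so the groups of 5 LPS mice had more chances than those of 3 PBS mice. The share of all genes detected in each group was not counted, so these numbers do not measure an effect of LPS on the ligands. *Cxcl15* and *Ccl26* were listed at 0 in all 16 mice. A further 8 gene IDs had reads but never more than 3 in a mouse, namely *Ccl1*, *Ccl8*, *Ccl20*, *Ccl24*, *Cxcl3*, *Cxcl11*, and 1 copy each of *Ccl21a* and *Ccl21b*. At this depth they were not detectable.

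The titles of the samples gave the groups. The labels also carry a treatment field, which named the other treatment in 12 of the 16 samples. *Gfap*, the intermediate filament gene of reactive astrocytes, was at 111 to 123 CPM in the mice titled PBS and at 572 to 1134 CPM in those titled LPS. With the treatment field in place of the titles, 0 ligands passed the test in any comparison. Of all 18859 genes, 0 then passed for LPS against PBS at either time, between the LPS groups or for the interaction. Between the PBS groups 70 genes passed. Marker genes of neurons summed to 4142 to 4839 CPM and were present in every mouse. Marker genes of the choroid plexus, a tissue next to the cortex, summed to 13.6 to 980 CPM and varied widely within each group. Markers of neutrophils summed to 2.48 to 2.86 CPM in ZT1 PBS and 1.80 to 2.42 CPM in ZT13 PBS cortex, against 14.5 to 60.9 CPM in ZT1 LPS and 43.5 to 107 CPM in ZT13 LPS cortex. The monocyte markers summed to 0.425 to 0.642, 0.154 to 0.381, 4.16 to 15.6 and 12.8 to 35.4 CPM in the same order. In bulk tissue, more cells of a type and more RNA per cell cannot be told apart, and the part of these cells in the ligand values was not tested.

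To ask which ligands responded to LPS at each TOD, log2(CPM + 0.5) was compared with limma for genes that reached 1 CPM in 3 mice or more. This left 18859 genes, among them 21 ligand gene IDs. At ZT1, 10 of the 21 rose and 4 fell after LPS (adjusted p under 0.05), where 11.1% of all genes tested rose and 5.15% fell. At ZT13, 11 rose and 3 fell, where 19.2% of all genes rose and 9.4% fell. The median log2 fold change of the 21 ligands was 0.60 at ZT1 and 0.79 at ZT13, and over all genes it was 0.04 and 0.05. Of the ligands tested, 8 (*Cxcl1*, *Cxcl9*, *Cxcl10*, *Ccl5*, *Ccl6*, *Ccl9*, *Ccl12* and *Ccl22*) reached 1 CPM in LPS mice alone. Such a gene had to be higher in LPS mice to be tested at all, so these counts and medians describe the 21 and do not compare ligands with other genes. Quantile normalization gave 5 higher and 4 lower at ZT1, and 8 higher and 5 lower at ZT13, and median-of-ratios scaling gave 10 higher and 5 lower at ZT13. Among all 18859 genes, quantile normalization gave 1493 higher and 1426 lower at ZT1, and 2540 higher and 3106 lower at ZT13. Median-of-ratios scaling gave 2842 higher and 2831 lower genes at ZT13. The ZT1 count was 8 without ZT1 PBS replicate 1, and 8 when all genes above 0 were tested, where 4.16% of 38565 genes passed. Over all genes, the 3061 calls at ZT1 became 1767, 1870 and 1770 without ZT1 PBS replicate 1, 2 and 3.

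**Figure D1:**
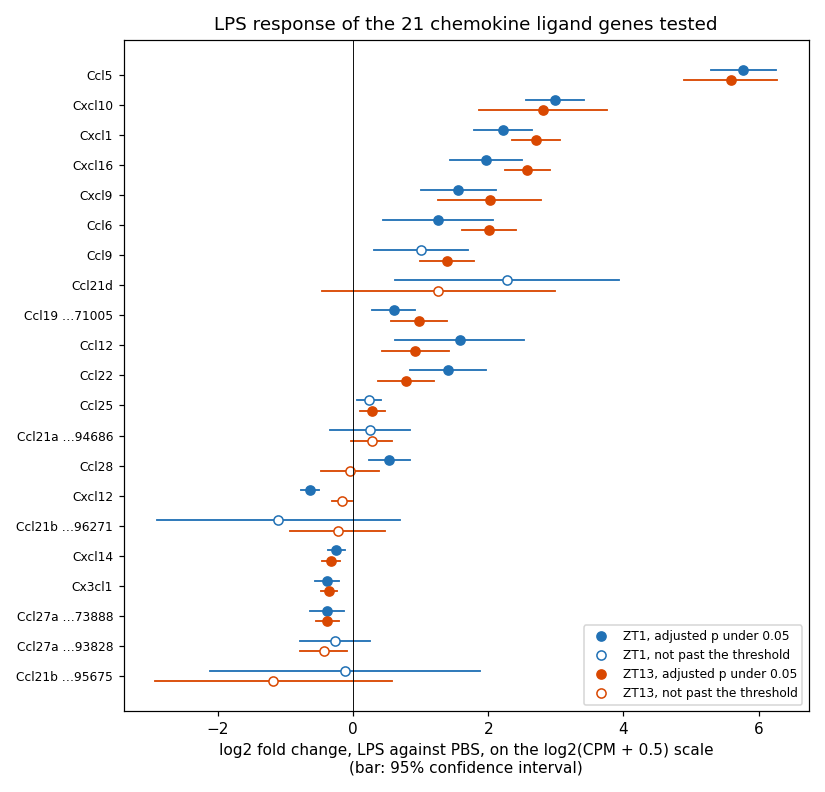
Log2 fold change of LPS against PBS for the 21 ligand genes tested (x axis, log2(CPM + 0.5) scale) at ZT1 in blue and ZT13 in orange, with 95% confidence intervals. Filled points passed an adjusted p of 0.05. *Ccl5* lies furthest to the right at both times, at 5.77 and 5.59, and the intervals of the *Ccl21* copies are the widest.

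Of the neutrophil-attracting ELR ligands, *Cxcl1* rose from a level at or near 0. *Cxcl1* (chromosome 5, 90891241 to 90893115) was listed at 0 in all 3 ZT1 PBS mice and was at 1.63, 2.46, 1.79, 1.23 and 2.22 CPM in the 5 ZT1 LPS mice. At ZT13 it was at 0.0380, 0 and 0 CPM with PBS and at 2.88, 2.36, 2.60, 2.77 and 3.76 CPM with LPS. Every LPS mouse was above every PBS mouse at both times. The log2 fold change was 2.22 (SE 0.20, adjusted p = 2.5e-05) at ZT1 and 2.71 (SE 0.16, adjusted p = 3.3e-08) at ZT13. The mean of the ZT1 LPS mice was 13.2-fold the mean CPM of 3 reads in the ZT1 PBS mice. *Cxcl2*, another ligand of CXCR2 in the same gene cluster, stayed below the filter. It was listed at 0 in all 6 PBS mice, at 0.373, 0.0895, 0.240, 0.140 and 0.272 CPM with LPS at ZT1 and at 0.443, 0.172, 0.461, 0.227 and 0.313 CPM at ZT13, so the groups did not overlap. With all genes above 0 tested, its log2 fold change was 0.52 (SE 0.13, adjusted p = 0.077) at ZT1 and 0.71 (SE 0.13, adjusted p = 0.014) at ZT13. *Cxcl5*, the other detected ELR ligand, was at 0.0494 to 0.126 CPM in ZT1 PBS, 0.137 to 0.385 CPM in ZT1 LPS, 0.134 to 0.342 CPM in ZT13 PBS and 0.0896 to 0.258 CPM in ZT13 LPS cortex. It did not pass the test at either time, with a log2 fold change of 0.32 (95% confidence interval 0.06 to 0.58, adjusted p = 0.19) at ZT1 and -0.15 (95% confidence interval -0.43 to 0.13, adjusted p = 0.54) at ZT13 among all genes above 0. *Cxcr2*, the receptor of these ligands, was listed at 0 in all PBS mice and reached 0.671 to 7.18 CPM with LPS at ZT1 and 4.93 to 13.4 CPM at ZT13.

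The interferon-inducible ligands *Cxcl9* and *Cxcl10* both rose. *Cxcl10* (chromosome 5, 92346638 to 92348889) was at 0.197, 0.0494 and 0.211 CPM in ZT1 PBS and 5.60, 6.09, 4.67, 3.29 and 3.99 CPM in ZT1 LPS mice. At ZT13 the values were 0.0380, 0.0463 and 0 CPM with PBS and 3.10, 2.32, 5.87, 7.62 and 0.806 CPM with LPS. No LPS mouse overlapped with PBS, although the ZT13 LPS mice spanned more than the ZT1 LPS mice. Its log2 fold change was 2.98 (SE 0.19, adjusted p = 2.8e-06) at ZT1 and 2.81 (SE 0.44, adjusted p = 0.00025) at ZT13. *Cxcl9* (chromosome 5, 92321347 to 92328079) was listed at 0 in all 6 PBS mice and was at 1.26, 0.806, 1.51, 1.16 and 0.408 CPM with LPS at ZT1. At ZT13 with LPS it was at 0.797, 0.859, 3.44, 2.92 and 0.940 CPM, with replicates 3 and 4 well above the other 3 mice. The LPS group means were 7.30-fold and 13.9-fold the mean CPM of 3 reads in the PBS mice, at ZT1 and ZT13. The log2 fold changes were 1.56 (SE 0.25, adjusted p = 0.0017) and 2.02 (SE 0.35, adjusted p = 0.00061). *Cxcl11*, the third CXCR3 ligand gene of the cluster, is annotated as a polymorphic pseudogene and was not detected in any group. The exons of *Cxcl10* share 133 bases with *Art3* on the opposite strand, and whether counting used the strand is not given in the sources used here.

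*Cxcl16*, a transmembrane chemokine that binds CXCR6 and is shed from myeloid and vascular cells, had a basal level in PBS cortex and rose with LPS. It was at 1.48, 1.23 and 1.18 CPM in ZT1 PBS and 10.1, 3.98, 5.82, 8.86 and 5.48 CPM in ZT1 LPS mice. The ZT13 values were 1.52, 0.971 and 1.11 CPM with PBS and 8.70, 12.2, 8.03, 11.2 and 8.29 CPM with LPS. The groups did not overlap at either time, and the mean was 5.29-fold higher at ZT1 and 8.07-fold higher at ZT13. The log2 fold change was 1.97 (SE 0.24, adjusted p = 0.00029) and 2.58 (SE 0.16, adjusted p = 3.0e-08), in that order. *Cxcl16* (chromosome 11, 70453983 to 70459984) shares 552 exon bases with *Zmynd15* on the opposite strand. *Cxcl13*, which attracts B cells, remained below the filter, at 0 to 0.373 CPM in ZT1 LPS and 0.114 to 0.310 CPM in ZT13 LPS cortex against 0 to 0.0759 CPM in PBS cortex. Among all genes above 0 its adjusted p was 0.26 at ZT1 and 0.075 at ZT13. *Cxcl17*, a mucosal chemokine, was at 0.0839 to 0.430 CPM over all mice and did not pass the test at either time (adjusted p = 0.055 and 0.58 among all genes above 0).

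Among CC ligands of monocytes, macrophages and lymphocytes, *Ccl5* (RANTES, which attracts T cells and monocytes) changed most. *Ccl5* (chromosome 11, 83525778 to 83530518) was at 0.296, 0.148 and 0.211 CPM in ZT1 PBS and 53.2, 35.7, 54.0, 33.8 and 24.9 CPM in ZT1 LPS mice. The ZT13 levels were 0.190, 0.0463 and 0.314 CPM with PBS and 22.4, 41.1, 54.5, 42.8 and 15.2 CPM with LPS. Every LPS mouse was far above every PBS mouse, and the group means differed 185-fold at ZT1 and 192-fold at ZT13. The log2 fold change was 5.77 (SE 0.22, adjusted p = 7.3e-08) at ZT1 and 5.59 (SE 0.32, adjusted p = 2.0e-08) at ZT13, the largest of the 21 ligands tested at both times. Within LPS cortex it varied from 24.9 to 54.0 CPM at ZT1 and from 15.2 to 54.5 CPM at ZT13. *Ccl5* is a well-known product of T and NK cells, and of the 6 T and NK cell markers 0 passed the filter. Their summed level was 0.0842 to 0.296 CPM in ZT1 PBS, 0.0896 to 0.114 CPM in ZT13 PBS, 0.224 to 0.793 CPM in ZT1 LPS and 0.358 to 1.67 CPM in ZT13 LPS cortex. The part of T and NK cells, or of any other cell type, in the *Ccl5* values was not tested.

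*Ccl6* and *Ccl9*, neighbouring genes whose products bind CCR1, both rose at ZT13. *Ccl6* (chromosome 11, 83587882 to 83593087) was at 0.197, 0.346 and 0.379 CPM in ZT1 PBS and 2.99, 0.492, 1.06, 2.77 and 0.997 CPM in ZT1 LPS mice. With PBS at ZT13 it was at 0.380, 0.278 and 0.493 CPM, and with LPS at 3.41, 2.84, 3.86, 3.33 and 2.01 CPM. The groups did not overlap, but the lowest ZT1 LPS mouse was close to PBS. Its log2 fold change was 1.26 (SE 0.37, adjusted p = 0.040) at ZT1 and 2.01 (SE 0.18, adjusted p = 2.0e-06) at ZT13. The ZT1 call held in 2 of the 8 fits that left out a mouse, those without ZT1 LPS replicate 2 or 5, and in the others the adjusted p was up to 0.14. It was also lost with a pseudocount of 1, all genes above 0, quantile normalization or no intensity trend (adjusted p = 0.052, 0.20, 0.11 and 0.088). *Ccl9* (chromosome 11, 83572919 to 83578636) was at 0.345, 0.839 and 0.547 CPM in ZT1 PBS and 3.03, 1.03, 1.44, 2.59 and 0.816 CPM in ZT1 LPS mice, where the lowest LPS mouse was below the highest PBS mouse. It did not pass the test at ZT1, with a log2 fold change of 1.00 (95% confidence interval 0.30 to 1.70, adjusted p = 0.054), and it did without ZT1 LPS replicate 2 (adjusted p = 0.034) or replicate 5 (adjusted p = 0.018). It also passed with a pseudocount of 0.1, in the single fit of all 16 mice and with sample quality weights (adjusted p = 0.044, 0.015 and 0.016). In ZT13 cortex it was at 0.645, 0.648 and 0.717 CPM with PBS and 2.52, 2.66, 3.27, 3.11 and 1.57 CPM with LPS, with no overlap, a log2 fold change of 1.39 (SE 0.19, adjusted p = 7.4e-05). *Ccr1*, their receptor, which reached 1 CPM in LPS mice alone, rose at ZT13 by a log2 fold change of 2.51 (SE 0.23, adjusted p = 2.1e-06) and did not pass the test at ZT1, with 1.13 (SE 0.38, adjusted p = 0.067).

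*Ccl12*, a CCR2 ligand that attracts monocytes, was spread widely among the ZT1 LPS mice. Its values were 0, 0.0494 and 0.0842 CPM in ZT1 PBS and 0.560, 0.134, 2.06, 2.03 and 2.08 CPM in ZT1 LPS mice, so replicates 3, 4 and 5 were near 2 CPM and replicates 1 and 2 were far lower. The levels at ZT13 were 0.152, 0.0463 and 0 CPM with PBS and 0.354, 0.688, 0.461, 1.06 and 0.403 CPM with LPS, again without overlap. The log2 fold change was 1.58 (SE 0.44, adjusted p = 0.031) at ZT1 and 0.92 (SE 0.23, adjusted p = 0.0077) at ZT13. At ZT1 the call held in 3 of the 8 fits that left out a mouse, those without ZT1 LPS replicate 1, 2 or 5. It was lost without any of the 3 PBS mice or ZT1 LPS replicate 3 or 4, with adjusted p up to 0.11. With all genes above 0, quantile normalization or no intensity trend the ZT1 call was also lost (adjusted p = 0.18, 0.12 and 0.074), and the ZT13 call was lost under quantile normalization and in the single fit of all 16 mice (adjusted p = 0.39 and 0.077).

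The other ligands of this group were detected but were too low for the filter. *Ccl2* (MCP-1), the main CCR2 ligand, was at 0.0493, 0 and 0.211 CPM in ZT1 PBS and 0.420, 1.12, 0.653, 0.350 and 0.544 CPM in ZT1 LPS mice. At ZT13 it was at 0, 0.0925 and 0.0448 CPM with PBS and 0.664, 0.774, 0.587, 0.606 and 0.582 CPM with LPS, and the groups did not overlap at either time. With all genes above 0 tested, its log2 fold change was 0.91 (SE 0.23, adjusted p = 0.087) at ZT1 and 1.07 (SE 0.08, adjusted p = 0.00031) at ZT13. *Ccl7*, another CCR2 ligand, was listed at 0 in all PBS mice and was at 0 to 0.210 CPM in ZT1 LPS and 0.0430 to 0.455 CPM in ZT13 LPS cortex. *Ccl3* (MIP-1α), which attracts monocytes and macrophages, was at 0 to 0.455 CPM in ZT1 LPS and 0.224 to 1.44 CPM in ZT13 LPS cortex, against 0 to 0.211 CPM in PBS cortex. *Ccl4* (MIP-1β) reached 0.227 CPM and *Ccl11* (eotaxin) reached 0.137 CPM, both in LPS mice. Among all genes above 0, none of *Ccl3*, *Ccl4*, *Ccl7* and *Ccl11* passed the test at either time, with adjusted p from 0.090 to 0.72.

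**Figure D2:**
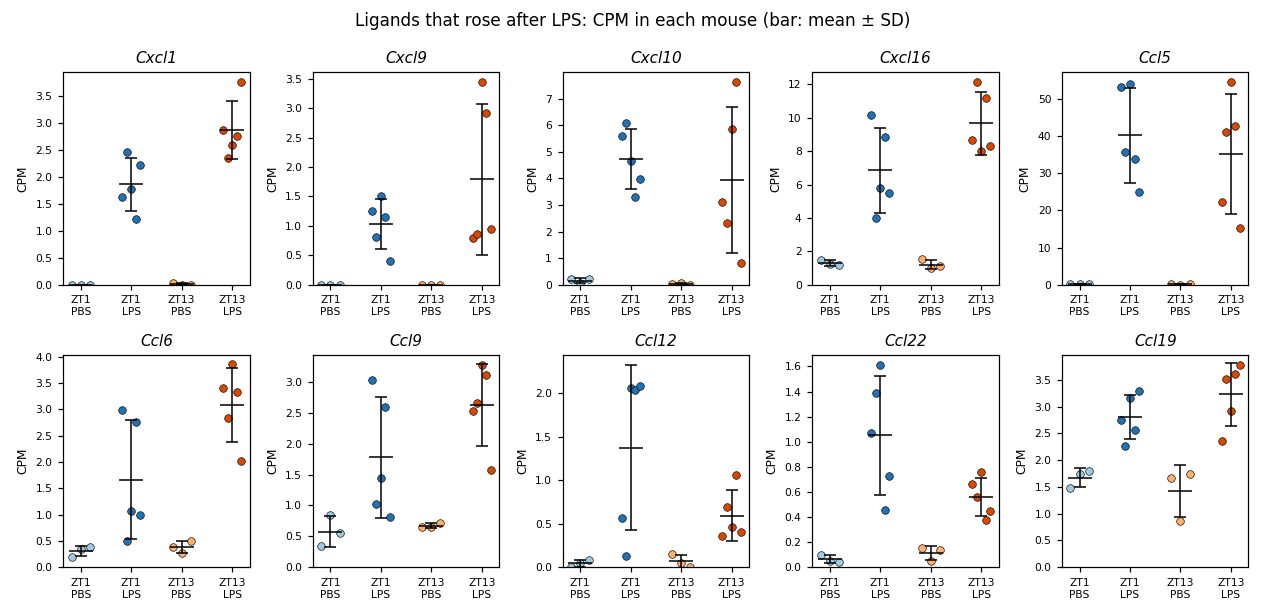
CPM of 10 ligands that rose after LPS at 1 or both times, 1 point per mouse, by group on the x axis, with the mean and SD as bars (n = 3 for PBS and n = 5 for LPS). *Cxcl1* and *Cxcl9* lie at or near 0 in PBS mice, *Ccl5* reaches 54.5 CPM, and the ZT1 LPS mice split into high and low values for *Ccl6*, *Ccl9* and *Ccl12*.

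Of the CC ligands of dendritic cells and lymphocytes, *Ccl22* and *Ccl19* rose at both times. *Ccl22*, which attracts CCR4-bearing T cells, was at 0.0986, 0.0494 and 0.0421 CPM in ZT1 PBS and 1.07, 1.39, 1.61, 0.455 and 0.725 CPM in ZT1 LPS mice. The ZT13 levels were 0.152, 0.0463 and 0.134 CPM with PBS and 0.664, 0.559, 0.755, 0.379 and 0.448 CPM with LPS. All LPS mice were above all PBS mice, with a log2 fold change of 1.40 (SE 0.26, adjusted p = 0.0035) at ZT1 and 0.79 (SE 0.19, adjusted p = 0.0070) at ZT13. Both calls were lost under quantile normalization (adjusted p = 0.071 and 0.70). *Ccl17*, which shares the receptor CCR4 and lies in the same cluster, was below the filter. At ZT1 it was at 0.0493 to 0.211 CPM with PBS and 0.272 to 0.895 CPM with LPS. At ZT13 it was at 0.416 to 0.448 CPM with PBS and 0.493 to 0.688 CPM with LPS. It did not pass the test among all genes above 0 (adjusted p = 0.20 at ZT1 and 0.10 at ZT13).

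*Ccl19*, a CCR7 ligand that guides dendritic cells and naive T cells, has copies in this annotation, and ENSMUSG00000071005 (chromosome 4, 42754525 to 42756577) carried nearly all reads. It was at 1.48, 1.75 and 1.80 CPM in ZT1 PBS and 2.74, 2.27, 3.16, 2.57 and 3.28 CPM in ZT1 LPS mice. The ZT13 values were 1.66, 0.865 and 1.75 CPM with PBS and 2.35, 3.51, 2.92, 3.61 and 3.78 CPM with LPS. There was no overlap between treatments, and the log2 fold change was 0.60 (SE 0.14, adjusted p = 0.015) at ZT1 and 0.97 (SE 0.19, adjusted p = 0.0014) at ZT13. The ZT1 call was lost without ZT1 PBS replicate 1 (adjusted p = 0.074). Quantile normalization also ended it (adjusted p = 0.057). Since 52.0% of its 50-base words occur in other genes, the split of reads between copies is uncertain, and the copy ENSMUSG00000094661 was at 0 to 0.133 CPM.

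*Ccl28*, a mucosal ligand of CCR10 and CCR3, rose at ZT1. It was at 1.82, 2.42 and 1.98 CPM in ZT1 PBS and 3.82, 2.78, 2.85, 3.33 and 3.40 CPM in ZT1 LPS mice, with no overlap and a log2 fold change of 0.54 (SE 0.14, adjusted p = 0.023). In ZT13 cortex it was at 4.06, 4.16 and 2.64 CPM with PBS and 5.27, 3.44, 3.48, 3.03 and 2.42 CPM with LPS, which overlapped, and the log2 fold change was -0.05 (95% confidence interval -0.48 to 0.38, adjusted p = 0.89). The difference between these responses did not pass the test, with an interaction of -0.58 (95% confidence interval -1.13 to -0.04, adjusted p = 0.50). The ZT1 call was lost without ZT1 PBS replicate 1 (adjusted p = 0.10) or replicate 3 (adjusted p = 0.086). All genes above 0 and quantile normalization ended it as well (adjusted p = 0.066 and 0.051).

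*Ccl25*, known as the CCR9 ligand of thymus and gut, rose at ZT13. It was at 12.4, 13.9 and 13.5 CPM in ZT1 PBS and 18.1, 15.7, 14.2, 15.6 and 15.1 CPM in ZT1 LPS mice, a log2 fold change of 0.24 (95% confidence interval 0.05 to 0.42, adjusted p = 0.077). The levels at ZT13 were 12.8, 14.1 and 11.9 CPM with PBS and 17.4, 14.9, 13.7, 16.7 and 16.7 CPM with LPS, which overlapped, and the log2 fold change was 0.28 (SE 0.09, adjusted p = 0.027). Without ZT13 PBS replicate 1 or 3 or ZT13 LPS replicate 1 or 4, the ZT13 call was lost, with adjusted p from 0.060 to 0.13. The ZT13 call was also lost with all genes above 0, median-of-ratios scaling, quantile normalization and no intensity trend (adjusted p = 0.11, 0.057, 0.23 and 0.055). The exons of *Ccl25* share 204 bases with *Elavl1* on the opposite strand.

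*Cx3cl1*, *Cxcl14* and *Ccl27a*, the ligands with the highest levels in PBS cortex, fell after LPS at both times. *Cx3cl1* (chromosome 8, 94772009 to 94782427) was at 726, 736 and 741 CPM in ZT1 PBS and 465, 542, 598, 588 and 640.0 CPM in ZT1 LPS mice. At ZT13 it was at 657, 686 and 687 CPM with PBS and 489, 533, 488, 547 and 585 CPM with LPS. Every LPS mouse was below every PBS mouse at both times, with a log2 fold change of -0.38 (SE 0.08, adjusted p = 0.0084) at ZT1 and -0.36 (SE 0.05, adjusted p = 0.00015) at ZT13. With all genes above 0 tested, the ZT1 call was lost (adjusted p = 0.093). *Cx3cl1* made up 78.96% to 81.3% of all ligand CPM in PBS mice and 67.7% to 77.2% in LPS mice. The markers of neurons, its main source, summed to 4499.6 to 4641 and 4583 to 4839 CPM in PBS and to 4195 to 4464 and 4142 to 4369 CPM in LPS cortex at ZT1 and ZT13. Of these 6 markers 1 fell at ZT1, where 5.15% of all genes fell, and 4 fell at ZT13, where 9.4% did. Their part in the fall of *Cx3cl1* was not tested. Its receptor *Cx3cr1*, carried by microglia, rose by a log2 fold change of 0.64 (SE 0.16, adjusted p = 0.020) at ZT1 and 0.85 (SE 0.08, adjusted p = 2.1e-06) at ZT13.

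*Cxcl14*, a constitutive chemokine that cortical interneurons also make, was at 62.2, 61.2 and 60.7 CPM in ZT1 PBS and 45.9, 51.8, 53.6, 53.1 and 53.6 CPM in ZT1 LPS mice. The ZT13 levels were 58.3, 62.3 and 60.9 CPM with PBS and 49.0, 50.7, 46.5, 42.6 and 52.1 CPM with LPS. The treatments did not overlap, and the log2 fold change was -0.25 (SE 0.06, adjusted p = 0.012) at ZT1 and -0.33 (SE 0.06, adjusted p = 0.00096) at ZT13. Without ZT1 PBS replicate 1 the ZT1 call was lost (adjusted p = 0.058). The same held with all genes above 0 tested (adjusted p = 0.055). *Ccl27a* ENSMUSG00000073888, a CCR10 ligand, was at 47.0, 45.0 and 42.3 CPM in ZT1 PBS and 28.4, 28.6, 37.3, 39.8 and 38.7 CPM in ZT1 LPS mice. In ZT13 cortex it was at 44.4, 43.5 and 41.5 CPM with PBS and 29.0, 37.3, 29.8, 32.9 and 36.5 CPM with LPS, and again the treatments did not overlap. Its log2 fold change was -0.38 (SE 0.11, adjusted p = 0.042) at ZT1 and -0.38 (SE 0.08, adjusted p = 0.0022) at ZT13. The ZT1 call held in 2 of the 8 fits that left out a mouse, those without ZT1 LPS replicate 4 or 5, and the adjusted p was up to 0.15. All genes above 0 and no intensity trend ended it as well (adjusted p = 0.20 and 0.10). This gene shares 45.0% of its 50-base words with other genes. Summed over its 4 copies, *Ccl27* was at 45.6 to 51.5 CPM in ZT1 PBS, 30.6 to 42.7 CPM in ZT1 LPS, 46.1 to 47.9 CPM in ZT13 PBS and 31.8 to 40.0 CPM in ZT13 LPS cortex. In these sums too, made after the values were seen, LPS and PBS mice did not overlap. The copy ENSMUSG00000093828, at 1.90 to 4.59 CPM, did not pass the test, with a log2 fold change of -0.27 (95% confidence interval -0.78 to 0.25, adjusted p = 0.50) at ZT1 and -0.44 (95% confidence interval -0.78 to -0.09, adjusted p = 0.059) at ZT13, but it passed at ZT13 with median-of-ratios scaling and quantile normalization (adjusted p = 0.034 and 0.0068).

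*Cxcl12* (SDF-1), which acts through CXCR4 and ACKR3 and is made by brain vessels and meninges, was the 1 ligand that passed the test of a different response to LPS at the 2 times. It was at 39.9, 40.6 and 38.1 CPM in ZT1 PBS and 27.8, 24.7, 24.7, 24.2 and 25.1 CPM in ZT1 LPS mice, and the treatments did not overlap. The levels at ZT13 were 34.8, 30.4 and 32.1 CPM with PBS and 28.6, 30.3, 27.2, 31.6 and 26.5 CPM with LPS, and they did. The log2 fold change was -0.64 (SE 0.06, adjusted p = 3.7e-05) at ZT1 and -0.17 (95% confidence interval -0.31 to -0.02, adjusted p = 0.079) at ZT13. The TOD × treatment interaction was 0.47 (SE 0.09, adjusted p = 0.042) on the log2 scale, and 0.159% of all genes passed that test. These 30 genes became 7 without ZT13 PBS replicate 2 and 104 without ZT1 LPS replicate 1, the extremes over the 16 mice. Among PBS mice, every ZT1 mouse was above every ZT13 mouse, with a log2 difference of -0.28 (95% confidence interval -0.42 to -0.15, adjusted p = 0.080). The LPS groups overlapped, with a log2 difference of 0.18 (95% confidence interval 0.06 to 0.31, adjusted p = 0.26). Of the 16 fits that left out a mouse, 3 kept the interaction call, those without ZT1 LPS replicate 1, ZT13 PBS replicate 1 or ZT13 LPS replicate 5, and the others gave adjusted p up to 0.17. It was also lost with all genes above 0 tested (adjusted p = 0.11), under quantile normalization (adjusted p = 0.054) and without the intensity trend (adjusted p = 0.11). Median-of-ratios scaling and quantile normalization called the ZT13 fall (adjusted p = 0.019 and 0.018), as did the fit without ZT13 LPS replicate 4 (adjusted p = 0.041).

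The sum of endothelial marker genes was lower in ZT13 PBS than in ZT1 PBS cortex, as *Cxcl12* was. It was 175 to 181 CPM in ZT1 PBS and 125 to 149 CPM in ZT13 PBS cortex, 192 to 281 CPM in ZT1 LPS and 261 to 282 CPM in ZT13 LPS cortex. The sum of mural cell markers was lower too, at 95.5 to 103 CPM in ZT1 PBS and 79.4 to 93.5 CPM in ZT13 PBS cortex. Meningeal fibroblast markers overlapped between these groups, at 134 to 218 CPM and 133 to 169 CPM. All 7 endothelial markers passed the filter, and 4 of them had an interaction of the same sign as *Cxcl12* that passed the test, where 0.159% of all genes passed. The list holds *Cldn5* and *Cdh5*, which the paper names for such an interaction in these same data. The count of 4 is therefore no independent comparison with all genes. With LPS at ZT1, 4 of the 7 rose and 1 fell, where 11.1% of all genes rose and 5.15% fell, while *Cxcl12* fell. With LPS at ZT13, 6 rose and 0 fell, where 19.2% of all genes rose and 9.4% fell, while *Cxcl12* did not pass the test. Their part in the *Cxcl12* values was not tested.

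**Figure D3:**
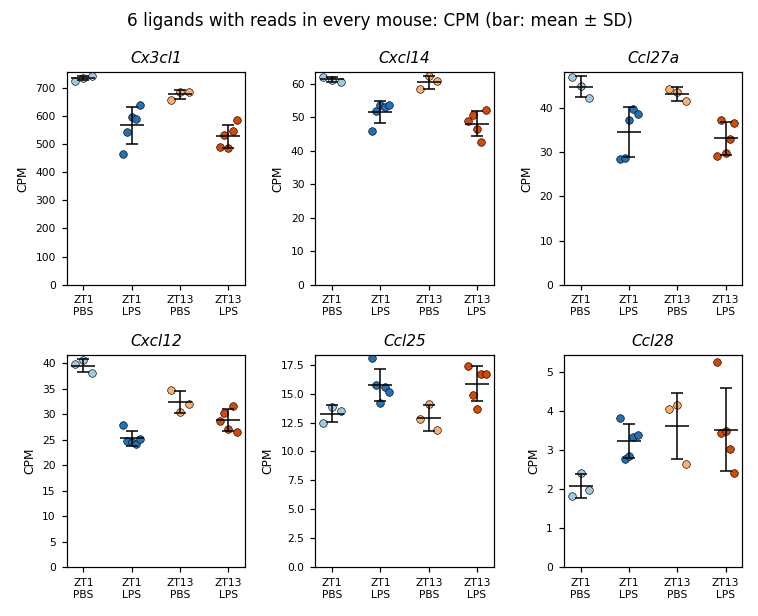
CPM of 6 ligands with reads in every mouse, 1 point per mouse, by group on the x axis, with the mean and SD as bars (n = 3 for PBS and n = 5 for LPS). LPS mice lie below PBS mice for *Cx3cl1*, *Cxcl14* and *Ccl27a* (ENSMUSG00000073888) at both times, and for *Cxcl12* the PBS mice at ZT1 (38.1 to 40.6 CPM) lie above those at ZT13 (30.4 to 34.8 CPM).

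Between ZT13 LPS and ZT1 LPS cortex, 0 of the 21 ligands passed the limma test, and 6 had an unadjusted p under 0.05, namely *Cxcl1*, *Cxcl12*, *Cxcl16*, *Ccl6*, *Ccl22* and *Ccl21b* ENSMUSG00000096271. Over all genes 0.0212% passed the test and 10.6% had an unadjusted p under 0.05. That is 4 genes, a number that became 345 without ZT1 LPS replicate 1, 20 without ZT1 LPS replicate 2 and 0 to 5 without any other LPS mouse, 225 with sample quality weights and 122 in the single fit of all 16 mice, and the count of ligands was 0 in each. The log2 difference, ZT13 minus ZT1, was 0.52 (95% confidence interval 0.19 to 0.86, adjusted p = 0.22) for *Cxcl1*, 0.52 (95% confidence interval 0.07 to 0.96, adjusted p = 0.38) for *Cxcl16* and 0.87 (95% confidence interval 0.22 to 1.53, adjusted p = 0.31) for *Ccl6*. For *Ccl22* it was -0.50 (95% confidence interval -0.95 to -0.05, adjusted p = 0.40). The ZT1 LPS and ZT13 LPS mice overlapped for each of the 21 ligands tested. The share of all genes that overlapped was not counted, so this describes the ligands alone. For *Ccl5* the difference was -0.28 (95% confidence interval -0.94 to 0.39, adjusted p = 0.83) and for *Cxcl10* it was -0.47 (95% confidence interval -1.30 to 0.36, adjusted p = 0.75).

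Between the PBS groups, 0 of 21 ligands passed the test, 3 had an unadjusted p under 0.05, and the smallest adjusted p was 0.080 for *Cxcl12*. Over all genes 0.52% passed and 13.5% had an unadjusted p under 0.05, and the 98 genes that passed became 12 to 87 when 1 mouse was left out, fewest without ZT1 PBS replicate 2. Besides *Cxcl12*, these were *Cx3cl1*, with a log2 difference of -0.12 (95% confidence interval -0.18 to -0.05, adjusted p = 0.13), and *Ccl28*, with 0.66 (95% confidence interval 0.25 to 1.07, adjusted p = 0.17). *Cx3cl1* was lower and *Ccl28* higher at ZT13 in all 3 mice than in any ZT1 PBS mouse. The PBS groups also did not overlap for *Cxcl10* and *Cxcl12* among the ligands tested. Below the filter the same held for *Ccl17*, *Cxcl5*, *Cxcl17* and *Ccl27a* ENSMUSG00000095247. The share of all genes without overlap was not counted. In the interaction test *Cxcl12* was the 1 of 21 ligands that passed, and the other with an unadjusted p under 0.05 was *Ccl28*, where 9.25% of all genes had such a p.

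Levels of different ligands were compared per length, as CPM per kb of exon. *Cx3cl1* was the highest in all 4 groups, at 187 ± 1.99 CPM per kb (SD, n = 3) in ZT1 PBS and 134 ± 10.4 CPM per kb (SD, n = 5) in ZT13 LPS cortex. In ZT1 PBS cortex *Cxcl14* followed at 33.6 ± 0.421, then *Ccl27a* ENSMUSG00000073888 at 18.8 ± 0.991 CPM per kb. Per kb of the longest transcript this order turned, with *Ccl27a* at 45.0 and *Cxcl14* at 33.6 CPM per kb. By exon length, *Ccl5* stood 16th of the 35 detected ligands in ZT1 PBS cortex, at 0.227 ± 0.0773 CPM per kb. With LPS it was 2nd, at 42.0 ± 13.3 CPM per kb at ZT1 and 36.7 ± 16.7 CPM per kb at ZT13. By exon length its range over the LPS mice overlapped with that of *Cxcl14*, the next ligand, at 28.2 ± 1.79 and 26.4 ± 2.06 CPM per kb, so their order is not set. By longest transcript *Ccl5* was also 2nd in LPS cortex and *Ccl27a* was next, and their ranges overlapped too, at 37.2 to 80.9 and 28.6 to 40.0 CPM per kb at ZT1, while *Ccl5* then lay above *Cxcl14* (25.1 to 29.3 CPM per kb) in every ZT1 LPS mouse. *Cxcl16*, *Cxcl10*, *Ccl6* and *Cxcl1* were at 3.20, 1.75, 1.72 and 1.53 CPM per kb in ZT13 LPS cortex. Without *Cx3cl1*, the ligands summed to 170.1 to 181.0 CPM in ZT1 PBS and 189 to 228 CPM in ZT1 LPS mice.

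**Figure D4:**
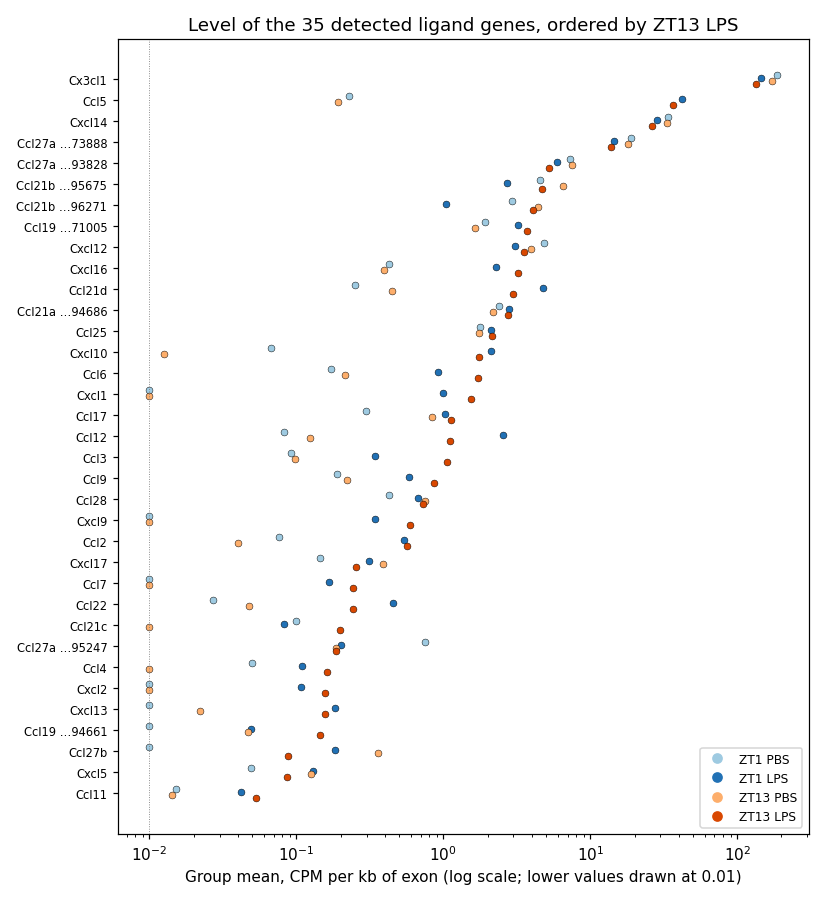
Group mean level of the 35 detected ligand gene IDs in CPM per kb of exon (x axis, log scale, values under 0.01 drawn at 0.01), 1 point per group. *Cx3cl1* is at the top at 134 to 187, and *Ccl5* moves from 0.191 to 0.227 in PBS to 36.7 to 42.0 in LPS cortex.

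*Ccl21*, the CCR7 ligand of lymphatic vessels, has several near-identical copies, and their counts could not be told apart with confidence. The share of 50-base words found in other genes was 71.6% for *Ccl21a*, 97.1% for *Ccl21d* and 100% for *Ccl21b*. *Ccl21d* was at 8.13, 3.89, 6.60, 2.04 and 0 CPM in the ZT1 LPS mice and *Ccl21b* ENSMUSG00000095675 at 8.47, 0, 0, 1.03 and 0 CPM in the ZT13 LPS mice, so single copies switched between 0 and several CPM within a group. None of the 4 tested copies passed the test in any comparison. *Ccl21d* had a log2 fold change of 2.28 (95% confidence interval 0.62 to 3.94, adjusted p = 0.063) at ZT1, and without ZT1 LPS replicate 5 its adjusted p was 0.00082, and with sample quality weights it was 0.016. Summed over 7 copies after the values were seen, *Ccl21* was at 4.89 to 8.73 CPM in ZT1 PBS, 3.04 to 12.1 CPM in ZT1 LPS, 7.48 to 11.2 CPM in ZT13 PBS and 9.10 to 11.9 CPM in ZT13 LPS cortex, and LPS and PBS overlapped at each time. The remaining copies, *Ccl21c*, *Ccl27b* and *Ccl27a* ENSMUSG00000095247, were detected below the filter at 0 to 1.06 CPM.

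**Figure D5:**
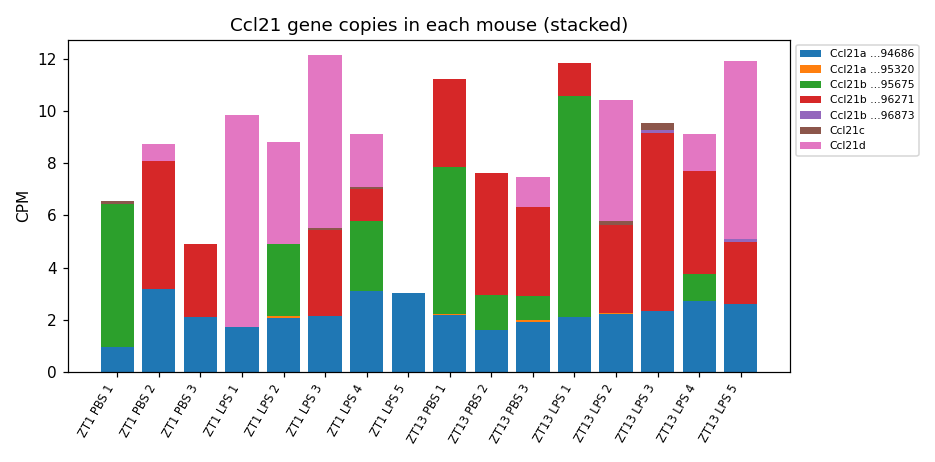
CPM of the 7 *Ccl21* gene copies in each of the 16 mice, stacked. The sum lies between 3.04 and 12.1 CPM, while *Ccl21b* and *Ccl21d* change places from mouse to mouse and *Ccl21a* (ENSMUSG00000094686) is present in every mouse.

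LPS mice did not share 1 order over the ligands. Among the 10 ligands that rose at ZT1, ZT1 LPS replicate 2 was the lowest of its group for 5 and the highest for 2. Its neutrophil markers summed to 15.1 CPM and its monocyte markers to 4.16 CPM, the second lowest and the lowest of the group. Among the 11 that rose at ZT13, ZT13 LPS replicate 3 was the highest for 5 and replicate 5 the lowest for 4. Replicate 5 was nonetheless the highest of its group for *Cxcl1* and *Ccl19*.

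Receptors and the remaining ligands of the pathway were counted from a list. Of 23 chemokine receptor genes 12 were tested, and 5 rose at ZT1, where 11.1% of all genes did, and 7 at ZT13, where 19.2% did, while 0 fell, and 0 passed the limma test between the times or for the interaction. At an unadjusted p under 0.05, 8 were higher and 1 was lower at ZT1 after LPS, 9 were higher and 0 lower at ZT13, 4 differed between the LPS groups, 1 was higher and 2 were lower at ZT13 between the PBS groups, and 4 had an interaction. Over all genes, 30.3%, 38.3%, 10.6%, 13.5% and 9.25% had such a p in these comparisons. Of the 12 receptors, 4 (*Ccr1*, *Ccr2*, *Cxcr2* and *Cxcr6*) reached 1 CPM in LPS mice alone, so they had to be higher with LPS to be tested, and the counts do not compare receptors with other genes. *Cxcr2* rose by a log2 fold change of 2.66 (SE 0.54, adjusted p = 0.0064) at ZT1 and 4.32 (SE 0.26, adjusted p = 3.0e-08) at ZT13, and *Ccr2*, the monocyte receptor of *Ccl2*, *Ccl7* and *Ccl12*, by 1.03 (SE 0.30, adjusted p = 0.037) and 1.88 (SE 0.21, adjusted p = 1.3e-05). The decoy receptors *Ackr1* and *Ackr2*, which bind chemokines without G protein signalling, rose by 0.88 (SE 0.06, adjusted p = 6.1e-06) and 0.64 (SE 0.13, adjusted p = 0.0068) at ZT1. At ZT13 these were 1.10 (SE 0.07, adjusted p = 5.2e-08) and 0.47 (SE 0.15, adjusted p = 0.029). *Cxcr4* passed the test at ZT13, with 1.09 (SE 0.25, adjusted p = 0.0046), and not at ZT1, with 0.52 (SE 0.22, adjusted p = 0.13). *Cxcr2* and *Ccr2* are also carried by the neutrophils and monocytes whose markers rose. The ligands that the naming rule leaves out, *Pf4*, *Ppbp* and *Xcl1*, were at 0 to 1.17 CPM and did not pass the filter.

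Genes of the same genomic cluster did not all move alike. On chromosome 8, *Ccl22*, *Cx3cl1* and *Ccl17* lie within 66.4 kb (94745590 to 94812036), and *Ccl22* rose while *Cx3cl1* fell. *Ccl17* stayed below the filter, and its LPS mice lay above its PBS mice at each time. On chromosome 5, *Cxcl9*, *Cxcl10* and *Cxcl11* lie within 44.1 kb, of which the first 2 rose and *Cxcl11*, annotated as a polymorphic pseudogene, was not detected. The *Cxcl5*, *Cxcl3*, *Cxcl15*, *Cxcl1* and *Cxcl2* genes lie within 146.6 kb of the same chromosome, and *Cxcl1* was the 1 of the 5 that passed the filter. On chromosome 11, *Ccl5*, *Ccl9*, *Ccl6*, *Ccl3* and *Ccl4* span 138.9 kb and *Ccl2*, *Ccl7*, *Ccl11*, *Ccl12* and *Ccl8* span 81.2 kb. Of the first cluster *Ccl5*, *Ccl6* and *Ccl9* passed the filter, and of the other *Ccl12* did. The filter is set on level, so a gene below it can still have changed. *Cxcl2* and *Ccl2*, both below it, passed the test at ZT13 among all genes above 0.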

How the data were processed

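Cortex RNA of 16 mice was analysed. The authors deposited 1 table of CPM, reads on a gene per 1000000 reads on all genes, per sample. Per the labels' processing notes, bcl2fastq, DRAGEN 4.0.3-8 and GRCm38 were used. The counting tool, its strand setting and multiple-mapping rule are not given in the sources used here. Of 55774 lines, 287 repeats of a gene were dropped. The share of values up to 20 reads that were whole within 0.01 read was 80.9% to 83.0% per sample, so counts could not be recovered and no count test was run. Each sample is a separate mouse, and the study's methods describe its mice as littermates, so p-values measure the spread between such mice.

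The 18859 genes that reached 1 CPM in 3 samples or more were compared as log2(CPM + 0.5) with limma 3.58.1 (R 4.3.3), with an intensity trend and Benjamini-Hochberg adjustment over all of them, and called at an adjusted p under 0.05. A fold change is on that scale and understates the change of low genes. Pairwise comparisons used their 2 groups alone and the interaction all 16 samples. Fits were tested on simulated data. Groups were taken from the sample titles. Positions are from GENCODE M21 (GRCm38), which held all 45 gene IDs. Members and gene lists were chosen with earlier results of these data known. All members were named, and 1 gene of the lists is not reported here. Promoter windows are the 250 bases before each RefSeq start. Near-identical copies were recognised by 50-base words of their transcripts, since protein sequences were not used here. Alternatives were pseudocounts of 0.1 and 1, other filters, scalings, fits, weights, the treatment field, detection limits, transcript lengths, a replicate block and leaving out each mouse. Tables were handled in pandas 2.3.3 (Python 3.11.15) and plotted with matplotlib 3.10.9.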

Additional observations from a re-analysis of the deposited data

Results flagged for a closer look

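The interaction of *Cxcl12* was flagged because its fall after LPS was smaller at ZT13 than at ZT1. The log2 fold change was -0.17 at ZT13, which did not pass the test, and -0.64 at ZT1, and the limma estimate of the difference was 0.47. The endothelial and mural cell marker sums, given beside it above, moved in the same direction as *Cxcl12* between the PBS groups. With LPS at ZT1 the endothelial sum was higher and *Cxcl12* was lower.

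Single mice stood apart from the other 4 of their group by Dixon's test in 6 of 70 groups of 5 mice, or 8.57%. The chance rate of about 1 in 20 holds for normally distributed values. A group with 1 mouse above 0 and the others at 0 is always flagged, so that rate does not apply here. ZT1 LPS replicate 1 had the highest *Cxcl12*, at 27.8 CPM with the next mouse at 25.1 CPM. The same mouse had the lowest *Cxcl14*, at 45.9 CPM with the nearest at 51.8 CPM. ZT13 LPS replicate 1 had 8.47 CPM of *Ccl21b* ENSMUSG00000095675, where the next mouse had 1.03 CPM. *Ccl27b* was at 0.389 CPM in ZT1 LPS replicate 4 and listed at 0 in the other 4 mice, and it was at 0.146 CPM in ZT13 LPS replicate 4 against 0.0421 CPM in the next. The *Ccl19* copy ENSMUSG00000094661 was at 0.0798 CPM in ZT1 LPS replicate 4 and listed at 0 in the others. The last 4 values belong to gene copies whose reads could be assigned to another copy.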

How the results depend on the processing

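No alternative turned the direction of a called ligand, apart from the treatment field, for which counts of calls alone were computed. Of 601 single-gene values, 518 kept their side of the threshold, 69 lost the call and 14 gained it. At ZT1, 14 ligands passed, against 8 with all genes above 0 tested, 7 with at least 5 CPM in at least 3 samples (10 ligands tested), 9 under quantile normalization and 0 with the treatment field. At ZT13, 14 passed, against 7 with at least 5 CPM and 0 with the treatment field. Between PBS groups quantile normalization called 1 ligand, *Cxcl12*, lower at ZT13, against 0, where it called 1.06% of all genes, against 0.52%. The 1 interaction call, *Cxcl12*, became 0 with all genes above 0, quantile normalization, no intensity trend, the replicate block and the treatment field. In these fits 12, 20, 11, 25 and 0 of all genes had an interaction call, against 30 in the main fit. Fewer genes tested is the construction of the 5 CPM filter, and otherwise the cause was not tested. Leaving out each mouse gave 8 to 16 calls at ZT1, 13 to 14 at ZT13, 0 to 0 between LPS groups and between PBS groups, and 0 to 1 for the interaction. The calls among all genes were then 1767 to 3758 at ZT1 and 4329 to 5547 at ZT13. Detection at more than 1 or more than 10 reads gave 42 or 29 ligands in place of 35. The 5 ligands with the highest level in ZT1 PBS cortex were the same 5 per kb of the longest transcript, with *Ccl27a* above *Cxcl14*.

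Same-numbered mice of different groups shared only a number: the correlation of their deviations was -0.20 to 0.33 in 20 pairs, over 0.1 in 3, and 4 samples correlated best with their own number. With the replicate block 11 ligands passed at ZT1, without *Ccl6*, *Ccl12*, *Ccl19* and *Ccl28* but with *Ccl21d*, and 13 at ZT13, without *Ccl25*. Depth limits the ligands under 1 CPM, where 3 reads are 0.103 to 0.148 CPM.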
